A study of Homo sapiens with 6 samples.

Results

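The CDK inhibitor genes fall into 2 families, CIP/KIP (CDKN1A, CDKN1B and CDKN1C) and INK4 (CDKN2A, CDKN2B, CDKN2C and CDKN2D), to which the phosphatase gene CDKN3 was added. Members were chosen by gene symbol, and 7 of the 8 had a value among the 31999 genes of the table. CDKN2B was not analysed here.

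RNA was sequenced from HEL cells, a human erythroleukemia cell line, carrying a lentiviral hairpin against TMIGD2 (shTMIGD2, 3 libraries) or a non-targeting control hairpin (shCtrl, 3 libraries). The labels call the libraries biological replicates of 1 cell line. According to the methods the lines were stable and puromycin-selected in both arms, and which of the TMIGD2 hairpins was sequenced is not given in the sources used here. The only measurement used is the authors' mean level of each gene over the 6 libraries of both groups together, on a log2 CPM scale. CPM are the fragments of a gene scaled to a common library total, as edgeR does. The value has no spread between libraries and cannot be divided into shTMIGD2 and shCtrl, so no difference between the groups is given below and no test was made. The depth behind it is unknown here.

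CDK inhibitors hold back the kinases that drive the cell cycle. INK4 proteins bind CDK4 and CDK6 and keep them from D cyclins, and the kinases can then no longer phosphorylate RB. CIP/KIP proteins bind assembled cyclin-CDK complexes, above all those of CDK2. CDKN3, also known as KAP, acts differently, since it removes an activating phosphate from CDK2 and CDK1. In blood, CDKN1B and CDKN1C are associated with stem cell quiescence, and CDKN2C with the exit of maturing cells from the cycle.

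At a level of 1 CPM or more over the pooled libraries stood 5 of the 7 members, namely CDKN1A, CDKN1B, CDKN2C, CDKN2D and CDKN3. Of all genes listed, 43.8% reached that level. CDKN1C and CDKN2A lay below it. All 7 members are protein-coding, while only 16339 of the 31999 genes listed matched a protein-coding gene. CDKN1C was at percentile 52.3 of all genes but 28.0 of protein-coding genes, so 43.8% is a low baseline for the members. The share of protein-coding genes at 1 CPM was not computed, and 5 of 7 is not read as a trait of the members. The median level of the 7 members was 5.05 on the log2 CPM scale, against -0.97 over all 31999 genes, and their levels ran from -2.57 to 7.55.

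**Figure D1:**
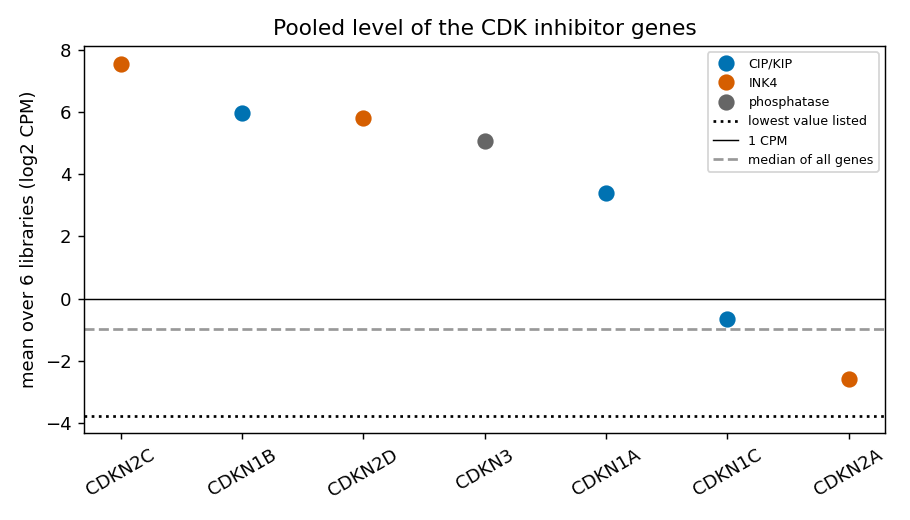
Mean level over the 6 libraries (log2 CPM, y axis) of the 7 CDK inhibitor genes with a value (x axis, ordered by level), 1 point a gene and with no error bars because the value is pooled. Lines mark 1 CPM, the median of all genes listed at -0.97 and the lowest value listed at -3.76. CDKN2C is the highest at 7.55, and CDKN1C and CDKN2A are the only members below the line at 1 CPM.

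Among the INK4 genes, CDKN2C was the most abundant. CDKN2C encodes p18INK4c and lies on the plus strand of chromosome 1 from 50960745 to 50974634 (GRCh38, GENCODE 44, as are the positions below). Its pooled level was 7.55 on the log2 CPM scale, or 188.0 CPM, which is rank 1042 from the top and percentile 96.7 of all genes listed. CDKN2D, for p19INK4d, lies at chromosome 19, 10566460 to 10569059, minus strand, and followed with 5.82 on the log2 CPM scale, or 56.4 CPM, at percentile 87.1.

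CDKN2A, at chromosome 9, 21967752 to 21995301, minus strand, was the least abundant member with a value. It encodes both p16INK4a, an inhibitor of CDK4 and CDK6, and ARF, which binds and inhibits MDM2. Its pooled level was -2.57 on the log2 CPM scale, or 0.168 CPM, at percentile 34.7. The lowest value in the table was -3.76, and 154 genes had exactly that value in all deposited decimals. The offset that edgeR adds to counts makes up an unknown part of so low a level. CDKN2A was only 2.29 times that lowest value on the CPM scale.

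The table has 1 row for a gene, whichever start its RNA came from. RefSeq lists 3 separated starts for CDKN2C and 2 for CDKN2A, and the 2 starts of CDKN2A are those of ARF (the upstream one) and p16INK4a. Their sequences are shown because the levels above cannot be assigned to any of them. Each runs from 100 bases before to 50 after the start (GRCh38.p14, RefSeq), 5′ to 3′ on the strand of the gene. Capitals mark GGGCGG, the core of the GC box bound by SP1, and TGACG, the short form of the cAMP response element bound by CREB, on either strand.
CDKN2C start 1, chr1:50960645-50960794, plus strand: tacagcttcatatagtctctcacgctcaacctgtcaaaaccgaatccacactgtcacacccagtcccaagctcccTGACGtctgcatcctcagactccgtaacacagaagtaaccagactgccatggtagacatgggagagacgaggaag
CDKN2C start 2, chr1:50968606-50968755, plus strand: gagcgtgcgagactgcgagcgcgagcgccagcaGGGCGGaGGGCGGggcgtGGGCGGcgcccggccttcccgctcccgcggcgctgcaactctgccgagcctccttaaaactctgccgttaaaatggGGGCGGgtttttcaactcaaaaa
CDKN2C start 3, chr1:50970145-50970294, plus strand: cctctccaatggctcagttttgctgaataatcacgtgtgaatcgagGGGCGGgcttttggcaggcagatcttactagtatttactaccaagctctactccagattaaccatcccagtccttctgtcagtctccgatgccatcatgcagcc
CDKN2A start 1, chr9:21995275-21995424, minus strand: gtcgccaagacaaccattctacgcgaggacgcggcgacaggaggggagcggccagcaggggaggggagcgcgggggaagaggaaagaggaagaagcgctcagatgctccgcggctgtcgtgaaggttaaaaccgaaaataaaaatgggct
CDKN2A start 2, chr9:21974808-21974957, minus strand: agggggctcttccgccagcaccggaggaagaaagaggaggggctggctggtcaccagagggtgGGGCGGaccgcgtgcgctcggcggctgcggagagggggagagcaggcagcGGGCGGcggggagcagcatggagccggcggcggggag

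The stretch at CDKN2C start 2 held 4 matches to GGGCGG, start 3 held 1 and start 1 none. In the full windows of 300 bases (250 before to 50 after each start), G and C made up 71.3% at CDKN2C start 2, against 46.3% at start 1 and 49.3% at start 3, where the median of 35116 RefSeq windows was 58.7%. Over all members, 10 windows of 7 genes were found, CDKN2B included, and CDKN1C was not among them. GGGCGG occurred on either strand in 7 of the 10, and in 45.0% of all windows. TGACG occurred in 5 of the 10, in CDKN1B, CDKN2B and each of the CDKN2C windows, and in 24.6% of all windows. The full palindrome TGACGTCA, which contains TGACG, was in 0 of the 10 and in 1.85% of all windows. TATAAA was likewise in 0 of the 10, against 11.5% of all windows. CCAAT, the core bound by NF-Y, was in 4 of the 10 windows and in 34.6% of all. A match of letters is a description of the window and no sign of binding.

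In the CIP/KIP family, CDKN1B was the most abundant member. CDKN1B encodes p27KIP1 and lies on the plus strand of chromosome 12 from 12685498 to 12722369. Its pooled level was 5.95 on the log2 CPM scale, or 61.9 CPM, at percentile 88.0. CDKN1A, for p21CIP1, on the plus strand of chromosome 6 from 36676460 to 36687337, had a pooled level of 3.38 on the log2 CPM scale, or 10.4 CPM, at percentile 71.5. Both were well above 1 CPM. The paper names CDKN1A and the cyclin gene CCND1, given below, among genes that changed significantly with the knockdown. Their pooled levels need not be those of either group.

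CDKN1C, for p57KIP2, an imprinted gene at chromosome 11, 2883213 to 2885775, minus strand, had a pooled level of -0.64 on the log2 CPM scale, or 0.641 CPM, at percentile 52.3. That is below 1 CPM but above the median of all genes, and 8.70 times the lowest CPM in the table. Among protein-coding genes alone, CDKN1C was at percentile 28.0, below their median. CDKN3, on the plus strand of chromosome 14 from 54396849 to 54420218, had 5.05 on the log2 CPM scale, or 33.2 CPM, at percentile 81.5.

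Levels of different genes can be compared only per length, because a longer transcript gives more fragments. Divided by the length of all annotated exons of the gene, CDKN2C had 62.3 CPM per kb and CDKN2D 37.5, followed by CDKN3 at 18.1 and CDKN1B at 6.69. CDKN1A had 3.48 CPM per kb, CDKN1C 0.258 and CDKN2A 0.0433. CDKN2C was 1.66 times CDKN2D per kb by this length, 1.64 times by longest transcript and 3.64 times by shortest protein-coding transcript. By the shortest protein-coding transcript the order in the middle changed, with CDKN1B in place 2 at 107.3 CPM per kb and CDKN2D in place 4 at 51.9. The exons of CDKN1B add up to 9255 bases, while its shortest protein-coding transcript has 577, and the transcript used in HEL cells was not measured here. CDKN2C in place 1, CDKN1A in place 5, CDKN1C in place 6 and CDKN2A in place 7 were the same by exon union, by longest transcript, by shortest protein-coding transcript and with no division by length. Whether neighbours in this order differ beyond the error was not tested, since the values carry no spread.

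Summed per kb of exons, the 3 INK4 genes with a value had 99.8 CPM per kb and the 3 CIP/KIP genes 10.4. CIP/KIP thus made up 9.46% of the sum of both families, and between 9.42% and 33.5% over the other lengths and the offset tried. The INK4 sum was the larger in each case. Nearly all of it came from CDKN2C and CDKN2D.

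The RNA levels of the inhibitors were set beside those of the kinases they act on. RNA levels do not give amounts of protein, which were not measured in this series. CDK4 had 54.1 CPM per kb and CDK6 20.5, and the INK4 sum was 1.34 times the sum of both kinases by exon union, 0.939 times by longest transcript and 0.319 times by shortest protein-coding transcript. Which of the sums is the larger thus depends on the length chosen. CDK2 had 22.1 CPM per kb, and the CIP/KIP sum was 0.472 times that level by exon union, 0.581 by longest transcript and 1.45 by shortest protein-coding transcript. CDK1, a substrate of CDKN3, had 31.9 CPM per kb, 1.76 times CDKN3 by exon union and 3.17 times by shortest protein-coding transcript.

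Of 17 genes for CDKs and their activators, 16 had 1 CPM or more. Of all genes listed, 43.8% did. That share stands beside the counts of the other lists below too, and it is low for lists of protein-coding genes. Per kb the highest was CDC37, a chaperone partner that loads CDK4 onto HSP90, at 141.6 CPM per kb, and the lowest was CDK3 at 0.125, which with 0.231 CPM was the member of the list under 1 CPM. Both kinases that restrain CDKs by phosphorylation were present, WEE1 at 9.07 CPM per kb and PKMYT1 at 7.52. Of 10 cyclin genes, 8 had 1 CPM or more. CCND3, the D cyclin with a known part in erythroid divisions, was the highest at 118.3 CPM per kb, 66.1 times CCND1 at 1.79 by exon union and 141.6 times by longest transcript. CCNA1, largely a germ cell cyclin, had 0.216 CPM and CCNB3 0.839 CPM, both under 1 CPM.

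All 13 RB and E2F genes listed reached 1 CPM, from E2F5 at 1.94 CPM per kb to TFDP1, a partner of E2F proteins in DNA binding, at 55.9. RB1, which CDK4 and CDK6 inactivate, had a pooled level of 6.93 on the log2 CPM scale. Among 19 genes known to act on transcription of the inhibitors, 19 reached 1 CPM and 17 reached 5 CPM. CBX7 at 1.08 CPM and FOXO1 at 1.52 were the lowest of them in CPM. MYC, a repressor of CDKN1A and CDKN2B together with ZBTB17, was the highest at 110.4 CPM per kb, and CBX7, a Polycomb protein that silences CDKN2A, the lowest at 0.144. MDM2, the ubiquitin ligase that ARF binds, had 5.40 on the log2 CPM scale. All 13 genes for the turnover of the inhibitor proteins reached 1 CPM, from CUL4B at 1.29 CPM per kb to PCNA, on which p21CIP1 is degraded, at 138.5. SKP2, the F-box protein that marks p27KIP1 for degradation, had 5.69 on the log2 CPM scale.

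**Figure D2:**
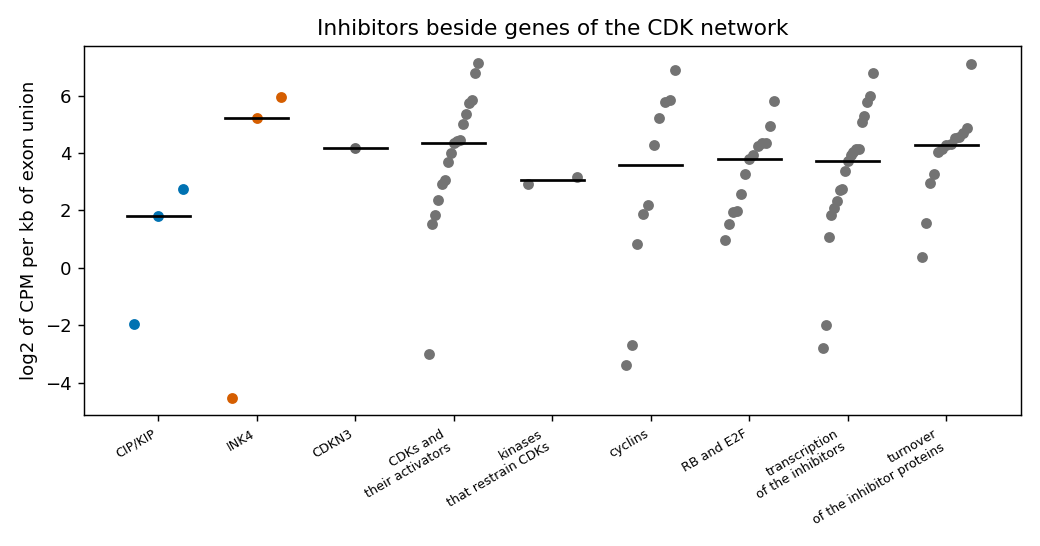
Mean level over the 6 libraries per kb of annotated exons (log2 of CPM per kb, y axis) for the CIP/KIP genes, the INK4 genes, CDKN3 and each list of CDK network genes (x axis). Each point is 1 gene and each bar the median of its group. CDKN2C and CDKN2D lie among the kinases and cyclins at 62.3 and 37.5 CPM per kb, and CDKN2A, at 0.0433, is the lowest point shown.

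The genes around CDKN2A on chromosome 9 were then examined, a choice made after the level of CDKN2A had been seen. Within 2 Mb, 9 other genes with a value could be matched to a position, and 6 of them were under 1 CPM. Of all 31999 genes listed, 17999 were under 1 CPM, so the count of 6 is near the share over all genes. Genes without a matched position could not be included. MTAP, a housekeeping enzyme of methionine salvage, from 21802636 to 21937651, had a pooled level of -3.18 on the log2 CPM scale, or 0.110 CPM. KLHL9, a substrate adaptor of a CUL3 ubiquitin ligase with a part in mitosis, from 21329665 to 21335404, had -3.76, which equals the lowest value of the table to 2 decimals but not in all of them. DMRTA1, on the other side, from 22446824 to 22455740, likewise had -3.76. The low levels were thus shared by MTAP, KLHL9 and DMRTA1, the nearest protein-coding genes with a value and a matched position on either side of CDKN2A.

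CDKN2B-AS1, the antisense RNA also known as ANRIL, overlaps the upstream end of CDKN2A and had -2.93 on the log2 CPM scale. The library kit keeps the strand, but whether counting used it is not given in the sources used here, so reads in that overlap cannot be assigned with certainty to CDKN2A or CDKN2B-AS1. FOCAD-AS1 and CLIC4P1, the 2 other low genes, are an antisense RNA and a processed pseudogene, at -2.02 and -2.11. Farther from CDKN2A, MLLT3, from 20341669 to 20622499, had 8.14 and FOCAD, from 20658309 to 20995955, had 4.45. The third gene above 1 CPM, KHSRPP1 at 2.01, is a processed pseudogene, whose reads can come from its parent gene. The DNA of these cells was not measured in this series, and the part of gene copy number in these levels was not tested.

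**Figure D3:**
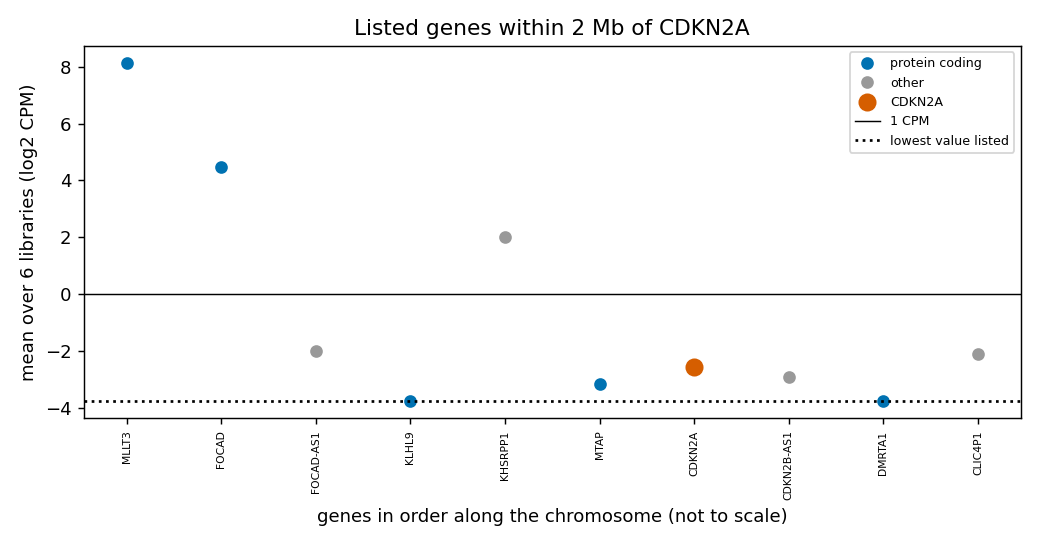
Mean level over the 6 libraries (log2 CPM, y axis) of CDKN2A and the 9 other genes with a value and a matched position within 2 Mb of it, in their order along chromosome 9 (x axis, not to scale). Each point is 1 gene, coloured by gene type, and lines mark 1 CPM and the lowest value listed. The run of protein-coding genes from KLHL9 through MTAP and CDKN2A to DMRTA1 lies at -2.57 or below, while MLLT3 and FOCAD on the left are at 8.14 and 4.45.

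Markers of the labelled cell type were then looked at. They were listed as genes that HEL cells are known to express, so their presence is no independent check of the label. Of all genes listed, 43.8% reached 1 CPM. All 10 erythroid and megakaryocytic markers reached 1 CPM, from EPOR, the erythropoietin receptor, at 14.9 CPM per kb to HBG1, a fetal globin whose reads are shared with the near-identical HBG2, at 576.4. Of 10 markers of other cell types, 7 had a value and 5 of these were under 1 CPM, among them MPO, of granulocytes, at 0.100 CPM, CD14 at 0.157, EPCAM at 0.169 and COL1A1 at 0.574 CPM. NKG7 had 1.27 CPM, and PECAM1, an endothelial marker that platelets and their precursors also carry, had 151.6 CPM. CD3E, CD3D and MS4A1 were not analysed here. TMIGD2 itself had a pooled level of 4.08 on the log2 CPM scale, or 16.9 CPM, which as a mean over both groups does not check the knockdown.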

How the data were processed

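RNA of 3 shCtrl and 3 shTMIGD2 libraries of HEL cells was sequenced. By the methods and the submitters' processing notes, the authors aligned reads to hg38 with STAR (version 2.6.1b) and counted fragments per gene with HTSeq (version 0.6.1) on a refSeq annotation. The authors' deposited table gives for each of 31999 genes a mean level over all 6 libraries, on a log2 CPM scale. It includes a small offset added by edgeR, whose settings are not given in the sources used here. The back-transformed values sum to 1002514. The table also holds 4 columns of the authors' comparison of the groups (fold change, F statistic, p and adjusted p). These were not used. For the comparison of groups the methods name DESeq2 (version 3.11), with a filter on low read counts, and do not mention edgeR. No column of the table belongs to a single library or group, so the planned count test was not run and nothing took its place. Labels assigned the libraries to their groups.

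CPM were computed as powers of 2 of the deposited values, with percentiles over all genes listed. Exon lengths came from GENCODE 44 on GRCh38. By symbol, 71.8% of the genes listed matched a gene there, so no level per kb is given over all genes. Each gene whose level is given per kb had a length. The version of gene models that the authors counted on may differ. Promoter windows came from RefSeq (GRCh38.p14). Named genes were all members with a value, the highest and lowest gene per kb of each list and genes under 1 CPM. The other genes that are named (the partners of the inhibitors, RB1, MDM2, SKP2, CCND1, CD14 and the neighbours of CDKN2A among them) were chosen after their values were seen. Some genes of the lists are not reported here. The members and lists were chosen with earlier results of these data known. Python 3.11.15, pandas 2.3.3 and numpy 2.4.6 were used, and the calculations of percentiles and exon lengths were tested on simulated data. Other thresholds, lengths and sets of ranked genes were tried as alternatives.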

Additional observations from a re-analysis of the deposited data

How the results depend on the processing

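No paired analysis was possible because the table holds no value for a single library. For the same reason the alternatives that need counts (DESeq2, other size factors, no filter on low counts, leaving out single libraries) were not run. The share of CIP/KIP in the summed level of both families, 9.46% by exon union, was 15.5% by longest transcript, 33.5% by shortest protein-coding transcript, 23.0% with no division by length and 9.42% with the lowest listed CPM subtracted. The number of members at 1 CPM or more was 5, and it was 6 at 0.5 CPM, with CDKN1C added, 5 at 5 CPM and 5 with the lowest CPM subtracted. Of the 21 pairs of members, 21 kept their order per kb by longest transcript, 18 by shortest protein-coding transcript and 19 with no division by length. Among protein-coding genes the percentile of CDKN2C was 93.9, that of CDKN1B 77.3, that of CDKN2D 75.5 and that of CDKN3 65.2. That of CDKN1A was 47.9, that of CDKN1C 28.0 and that of CDKN2A 17.1. Among genes at 1 CPM or more it was 92.6 for CDKN2C, 72.6 for CDKN1B, 70.4 for CDKN2D, 57.8 for CDKN3 and 34.9 for CDKN1A, against 71.5 for CDKN1A among all genes listed. Subtracting the lowest CPM took CDKN2A from -2.57 to -3.40 on the log2 CPM scale. Of the genes near CDKN2A, 6 of 9 within 2 Mb and 5 of 7 within 1 Mb were under 1 CPM, an alternative chosen after seeing the data. Over all 31999 genes listed, 17999 were. Since the depth is unknown, no counting interval can be given for any level.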
